A study of Mus musculus with 8 samples.

Results

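The 56 genes of the chemokine family described here are the 35 ligands, 17 signalling receptors and 4 atypical receptors whose names match *Ccl*, *Cxcl*, *Cx3cl1*, *Xcl*, *Ccr*, *Cxcr*, *Cx3cr1*, *Xcr* or *Ackr* plus a number, among 30890 genes of the count table. Membership was set by name alone, but the family was chosen with earlier results of these data known. RNA was sequenced from C57BL/6 mouse embryonic kidneys taken at E12.5 and kept in organ culture for 72 h, either with 5 μM CHIR99021 or with 0.1% DMSO, the solvent. There were 4 samples in each group, and no transgene or mutation was involved. CHIR99021 blocks the kinase GSK-3β, which otherwise sends β-catenin to be degraded, so that treated kidneys serve as a model of Wnt/β-catenin activation. In the study's methods the pair of kidneys of an embryo was divided, left for DMSO and right for CHIR99021. They left out kidneys that did not respond in typical Wnt target genes. An organ in culture has no blood flow, so leukocytes can come only from those present when the kidney was taken.

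Chemokines are small secreted proteins that guide the movement of cells along gradients. They are named by the spacing of their first cysteines (CC, CXC, CX3C or XC) and act on receptors that span the membrane and couple to inhibitory G proteins. Atypical receptors bind chemokines without this coupling and mostly remove them. Inflammatory chemokines, such as *Ccl2* or *Cxcl10*, are induced by NF-κB or interferons and recruit leukocytes. Homeostatic ones, such as *Cxcl12*, are made constantly and also guide the vessels and progenitors of developing organs, the kidney among them.

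Much of the family was lower with CHIR99021. Of the 56 genes, 32 had enough reads to be tested, and 17 of these were lower with CHIR99021, 2 were higher and 13 were not called at an adjusted p under 0.05 in edgeR's quasi-likelihood test. The model held the group alone, without pairing. With the replicate number as a block, 19 of the 32 were lower and 3 higher, and 26.2% of all tested genes were lower. The 17 lower genes are 53.1% of those tested, against 25% of all 16723 tested genes. The 2 higher genes, *Cxcl14* and *Ackr4*, are 6.25% of those tested, against 23.7% of all. Together with an absolute log2 fold change over 1, 14 were lower (9.16% of all tested genes) and 2 were higher (4.65% of all). The median log2 fold change was -1.06 over the 32 genes and -0.0029 over all tested genes. In 16 genes all CHIR99021 samples lay below all DMSO samples, and in 2 they lay above them, against 23.4% and 22.7% of all tested genes. Ligands made up 12 of the lower genes (24 tested), signalling receptors 3 (5 tested) and atypical receptors 2 (3 tested).

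**Figure D1:**
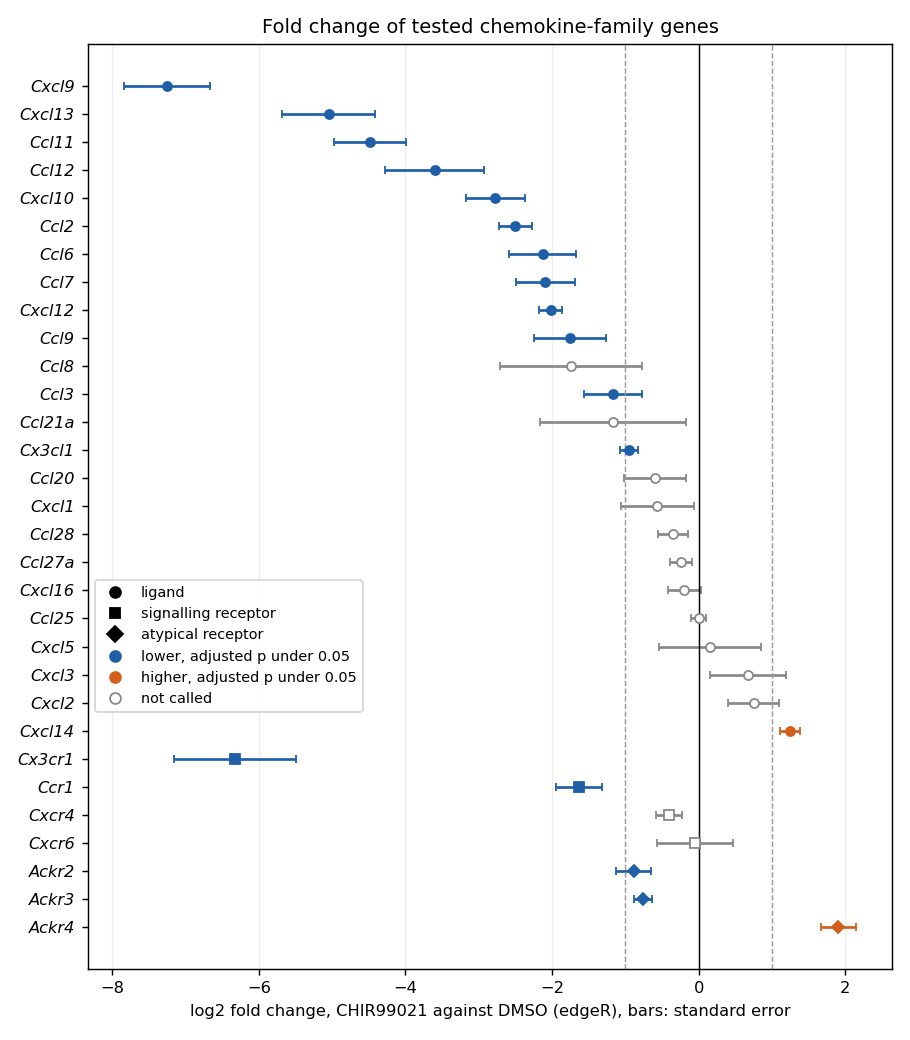
Log2 fold change of 31 of the 32 tested genes, CHIR99021 against DMSO, with the standard error as bars. Blue marks 16 of the genes called lower, orange the 2 called higher, open grey symbols the 13 not called, and dashed lines a log2 fold change of -1 and 1. Most filled symbols lie left of 0, from -0.76 (*Ackr3*) to -7.25 (*Cxcl9*).

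Counts per sample ran from 14599082 to 17751992, of which the chemokine family held 7082 to 10885 in DMSO samples and 3966 to 4820 in CHIR99021 samples. Levels within a gene are given as CPM, the count relative to the library's TMM-scaled total, where 1 count is worth 0.0541 to 0.0718 CPM. Levels between genes are given as the authors' FPKM, which divides by gene length. All 8 listed Wnt response genes were higher with CHIR99021 (median log2 fold change 3.07), a direction that the exclusion of unresponsive kidneys favours. Markers of nephron progenitors and ureteric epithelium were present in both groups, with lower sums after CHIR99021. All 8 nephron progenitor markers were lower (median log2 fold change -3.22). Their sums were 1098 to 1342 CPM with DMSO and 362.5 to 420.3 CPM with CHIR99021. Of 8 ureteric epithelium markers 5 were lower, with sums of 545 to 598 CPM and 302.1 to 333.2 CPM. Of all tested genes, 25% were lower. Markers of hepatocytes stood high in DMSO replicates 2 and 4, at 1396 and 996 CPM, against 7.50 to 55.1 CPM in the other DMSO samples and at most 8.05 CPM with CHIR99021.

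Macrophages carry many of these receptors and make many of these ligands, and their tested markers were also lower with CHIR99021. Of the 16 listed macrophage markers 15 were tested and all 15 were lower with CHIR99021, with a median log2 fold change of -3.12. Their summed level was 631, 594, 676 and 183 CPM in DMSO replicates 1 to 4 and 106, 101, 58.2 and 37.3 CPM in CHIR99021 replicates 1 to 4, so that the groups did not overlap and DMSO replicate 4 stood well below the other 3. Each of the 16 markers had more than 3 counts over all samples. All 10 endothelial markers were also lower (median log2 fold change -1.41), with sums of 494 to 693 CPM with DMSO and 194 to 270 CPM with CHIR99021. Such a fall was not particular to these cells, as all 8 nephron progenitor markers were lower too (median log2 fold change -3.22). Of 9 stromal markers, 4 were lower and 2 higher. Among all tested genes, 25% were lower and 23.7% higher. In bulk tissue, fewer cells of a type and less RNA per cell cannot be told apart. The part of any cell type in the changes below was not tested. Lymphocytes and natural killer cells left little trace, with a summed level of 0.374 to 4.05 CPM over 9 markers, 1 of them tested and not called. For *Klrd1* and *Nkg7* at most 3 counts were found, and *Cd3d* and *Cd3e* had no row in the count table. Of the 10 markers of neutrophils and mast cells, 3 were tested and *Csf3r*, the receptor for granulocyte colony-stimulating factor, was lower.

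The largest falls among the ligands were in *Cxcl9* and *Cxcl13*. *Cxcl9*, an interferon-induced attractant of T cells, was at 13.3, 17.1, 7.03 and 7.85 CPM with DMSO and at 0, 0.134, 0.144 and 0 CPM with CHIR99021. That is 786 counts over the DMSO samples and 4 counts over the CHIR99021 samples. Its log2 fold change was -7.25 ± 0.58 (SE; adjusted p = 4.85e-06), with a size that rests on those 4 counts. *Cxcl10*, a second interferon-induced ligand of the same receptor, fell less, from 17.4, 23.9, 11.8 and 11.97 CPM to 2.81, 4.02, 1.15 and 1.45 CPM. Every treated sample lay below every control (log2 fold change -2.78 ± 0.40, adjusted p = 5.63e-04). *Cxcl13*, which draws B cells into follicles, was at 1.62, 4.05, 4.10 and 2.22 CPM with DMSO. With CHIR99021 it was at 0.0624, 0.268, 0 and 0 CPM, from 5 counts in all (log2 fold change -5.05 ± 0.64, adjusted p = 4.91e-05). *Cxcr3*, the receptor of *Cxcl9* and *Cxcl10*, had 7 counts with DMSO and 3 with CHIR99021, and *Cxcr5*, the receptor of *Cxcl13*, had 13 and 0. Both receptors were below the expression filter. With no filter *Cxcr5* was called lower (adjusted p = 0.00885).

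*Cxcl9* and *Cxcl10* lie side by side on chromosome 5 with *Cxcl11*, which had 6 counts with DMSO and 1 with CHIR99021. The windows upstream of the first pair are shown because both genes fell and differ in the motifs they hold. Windows run from 250 bases before to 50 bases after the RefSeq start (GRCm38.p6), 5′ to 3′ along the gene. Capitals mark the NF-κB consensus, GAAA-NN-GAAA (GAAA, any 2 bases, GAAA), a core shared by interferon-stimulated response elements, and TCAAAG, a core of TCF/LEF sites. Each was searched on both strands. The window of *Cxcl9* is chr5:92328030-92328329 and that of *Cxcl10* is chr5:92348840-92349139, both on the minus strand.
Cxcl9: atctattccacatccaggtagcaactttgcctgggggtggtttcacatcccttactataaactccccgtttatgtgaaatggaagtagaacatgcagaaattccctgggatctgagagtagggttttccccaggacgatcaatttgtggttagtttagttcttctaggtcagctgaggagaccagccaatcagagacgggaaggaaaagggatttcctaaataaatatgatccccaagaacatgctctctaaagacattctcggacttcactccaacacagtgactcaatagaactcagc
Cxcl10: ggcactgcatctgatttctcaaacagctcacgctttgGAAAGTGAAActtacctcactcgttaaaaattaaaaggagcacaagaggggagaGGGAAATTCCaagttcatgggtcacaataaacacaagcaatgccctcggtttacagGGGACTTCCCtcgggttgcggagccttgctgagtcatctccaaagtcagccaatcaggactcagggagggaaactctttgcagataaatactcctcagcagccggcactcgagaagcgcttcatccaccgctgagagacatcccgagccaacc
*Cxcl10* held GAAAGTGAAA from position -213 relative to the start site and NF-κB matches from positions -159 and -103, whereas these letters were not found in the *Cxcl9* window. The GAAA-NN-GAAA core was found in 3.44% of all 32851 promoter windows and the NF-κB consensus in 4.51%. Of the listed inducers of chemokine transcription, 20 were tested, 5 of them lower and 3 higher, beside 25% and 23.7% of all tested genes, with a median log2 fold change of -0.12. The lower ones included the interferon-response factors *Irf7* (log2 fold change -3.21 ± 0.16, adjusted p = 1.82e-08) and *Stat2* (-0.61 ± 0.08, 5.04e-05). *Irf1* and *Nfkbia* are named here after their values were seen. *Irf1*, which also drives interferon-induced genes, was higher (log2 fold change 0.36 ± 0.10, adjusted p = 0.0115). *Nfkb1*, a subunit of NF-κB, was slightly lower (-0.27 ± 0.05, adjusted p = 6.95e-04), and *Nfkbia*, its inhibitor, was slightly higher (0.42 ± 0.08, adjusted p = 7.01e-04).

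The monocyte chemoattractants of chromosome 11 formed the second group of lower ligands. *Ccl2*, the main attractant of monocytes, was at 14.8, 17.9, 14.9 and 20.4 CPM with DMSO and at 2.87, 4.69, 2.30 and 2.10 CPM with CHIR99021. Its groups lay far apart (log2 fold change -2.50 ± 0.22, adjusted p = 3.67e-06). Its highest value was in DMSO replicate 4, the control with the lowest sum of macrophage markers, and a link between them was not tested. *Ccl7*, which shares the receptor CCR2 with *Ccl2*, fell from 20.1, 18.1, 18.7 and 13.5 CPM to 3.93, 8.17, 2.01 and 2.37 CPM (log2 fold change -2.09 ± 0.40, adjusted p = 0.00316). *Ccl12*, another ligand of CCR2 in the mouse, was at 12.2, 9.82, 10.7 and 3.27 CPM with DMSO and at 0.624, 1.34, 1.00 and 0 CPM with CHIR99021 (log2 fold change -3.60 ± 0.68, adjusted p = 0.00286). The groups of both genes did not overlap, and in both DMSO replicate 4 was the lowest control. *Ccl11*, or eotaxin, the attractant of eosinophils, was at 8.60, 9.14, 3.40 and 4.91 CPM with DMSO and at 0.0624, 0.469, 0.431 and 0.197 CPM with CHIR99021. Its fall was the largest of the group (log2 fold change -4.48 ± 0.49, adjusted p = 2.54e-05). The receptor gene *Ccr2* had 14 counts with DMSO and 2 with CHIR99021, and *Ccr3*, the receptor of *Ccl11*, had 5 and 2, so neither was tested.

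Whether *Ccl8*, the fifth gene of this stretch, was called depended on the replicate block and on replicate 4. It was at 15.04, 11.4, 9.31 and 0.916 CPM with DMSO and at 3.68, 5.49, 1.65 and 0.131 CPM with CHIR99021. The groups overlapped only through DMSO replicate 4, and within every replicate number the treated sample was the lower one. Its log2 fold change of -1.74 ± 0.97 was not called (adjusted p = 0.190). With the replicate number as a block, equal numbers being taken as the kidneys of 1 embryo, it was called (log2 fold change -1.81 ± 0.24, adjusted p = 1.34e-04). Without replicate 4 in either group it was called as well (-1.71 ± 0.39, adjusted p = 0.0101).

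A second stretch of chromosome 11 held *Ccl9*, *Ccl6* and *Ccl3*, ligands of CCR1, all 3 lower. *Ccl6*, made by myeloid cells, was at 24.7, 24.8, 17.4 and 16.2 CPM with DMSO and at 8.11, 6.43, 2.66 and 1.64 CPM with CHIR99021 (log2 fold change -2.13 ± 0.45, adjusted p = 0.00637). *Ccl9* was at 12.2, 12.8, 12.48 and 6.67 CPM with DMSO and at 5.43, 4.42, 2.44 and 0.723 CPM with CHIR99021 (log2 fold change -1.76 ± 0.49, adjusted p = 0.0196). Both were apart between the groups, and each was lowest in replicate 4 of both groups. *Ccl3*, an inflammatory attractant of leukocytes, was at 5.30, 3.60, 2.75 and 1.44 CPM with DMSO and at 1.62, 2.21, 1.22 and 0.789 CPM with CHIR99021. Its groups overlapped through DMSO replicate 4, and its call was the weakest of the family (log2 fold change -1.17 ± 0.40, adjusted p = 0.0326). It lost the call in 9 of 19 alternative analyses, 5 of which each left out a single library (replicates 1 and 2 of DMSO, and replicates 1, 3 and 4 of CHIR99021, with an adjusted p of 0.0635 to 0.0926). *Ccl9* lost it without CHIR99021 replicate 3 (-1.64 ± 0.57, adjusted p = 0.0575), and when all genes of the table were tested (adjusted p = 0.0613). *Ccl4*, its neighbour, was not tested and had 44, 19, 21 and 2 counts with DMSO and 8, 7, 4 and 1 with CHIR99021. *Ccl5* at the other end of the stretch had 37 counts with DMSO, 19 of them in replicate 2, and 10 with CHIR99021.

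**Figure D2:**
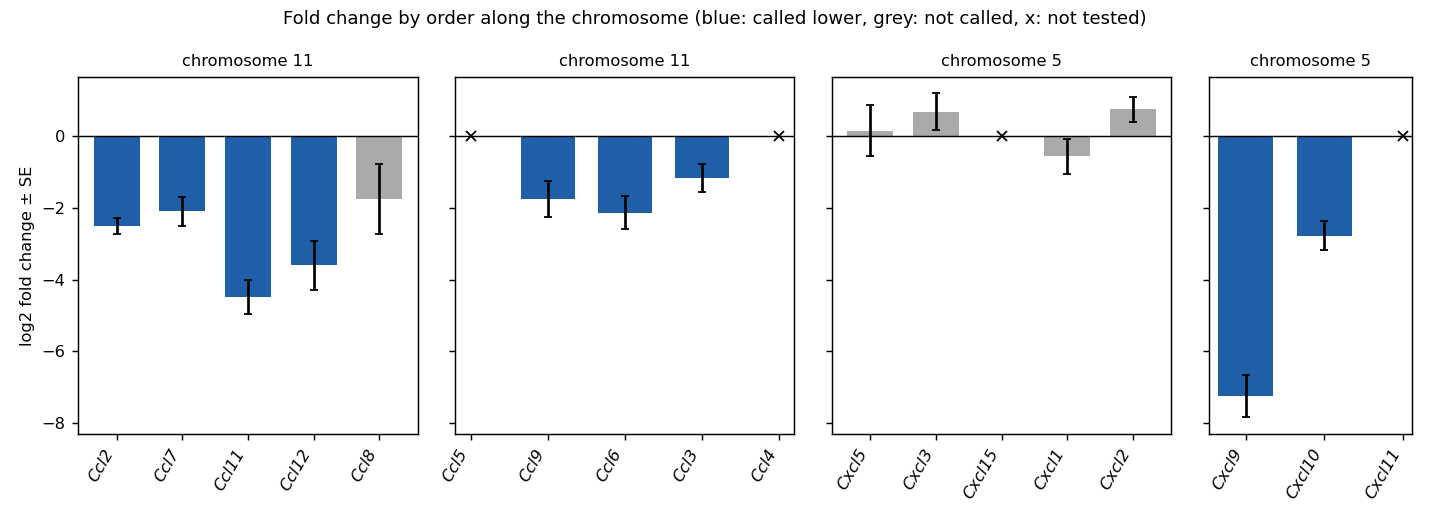
Log2 fold change, CHIR99021 against DMSO, with its standard error for chemokine genes in chromosome order, for 4 stretches with at least 3 family genes no more than 200000 bases apart and at least 2 tested. The chromosome 11 and *Cxcl9* stretches hold only lower or uncalled genes, and the stretch of *Cxcl5* to *Cxcl2* holds none that was called.

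The 5 genes from *Ccl2* to *Ccl8* span chr11:82035571-82116799 and the 5 from *Ccl5* to *Ccl4* span chr11:83525778-83664683. The ligands of neutrophil receptors, *Cxcl5*, *Cxcl3*, *Cxcl15*, *Cxcl1* and *Cxcl2* (chr5:90759360-90905938), are set in the same way, but 0 of the 4 tested there were called, at unadjusted p of 0.830, 0.219, 0.287 and 0.0488 for *Cxcl5*, *Cxcl3*, *Cxcl1* and *Cxcl2*. *Cxcl1* was at 2.33 to 10.5 CPM with DMSO and 2.04 to 6.36 CPM with CHIR99021 (log2 fold change -0.56 ± 0.49, adjusted p = 0.387). *Cxcl5* was at 0.974 to 12.04 CPM and at 4.02 to 10.04 CPM (0.16 ± 0.70, adjusted p = 0.876). In *Cxcl1* and *Cxcl5* the controls spread more widely than the groups differed. *Cxcl2* was at 0.811, 2.06, 1.17 and 1.37 CPM with DMSO and at 1.75, 3.35, 2.73 and 1.31 CPM with CHIR99021, higher in 3 of 4 replicate numbers. Its log2 fold change of 0.75 ± 0.34 was not called (adjusted p = 0.0900). *Cxcl2* was called higher in 6 of 19 alternatives. Among these were the replicate block (0.75 ± 0.26, adjusted p = 0.0322) and the fits without DMSO replicate 2 (1.03 ± 0.36, adjusted p = 0.0364) or CHIR99021 replicate 4 (0.95 ± 0.33, adjusted p = 0.0354). *Cxcl3* was at 0.595, 1.08, 0.762 and 2.68 CPM with DMSO and at 2.06, 3.21, 2.01 and 0.789 CPM with CHIR99021. It was not called (0.68 ± 0.52, adjusted p = 0.311), and without replicate 4 in either group it was called higher (1.57 ± 0.33, adjusted p = 0.00260). *Cxcl15* was not tested and had 4, 0, 1 and 0 counts with DMSO and 6, 19, 6 and 9 with CHIR99021. The receptor gene *Cxcr2* had 10 counts with DMSO and 2 with CHIR99021.

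The windows of *Cxcl1*, *Cxcl2* and *Cxcl3* are shown because they hold the same NF-κB match, while none of the genes was called. They are chr5:90890995-90891294, chr5:90903649-90903948 and chr5:90785851-90786150 on the plus strand.
Cxcl1: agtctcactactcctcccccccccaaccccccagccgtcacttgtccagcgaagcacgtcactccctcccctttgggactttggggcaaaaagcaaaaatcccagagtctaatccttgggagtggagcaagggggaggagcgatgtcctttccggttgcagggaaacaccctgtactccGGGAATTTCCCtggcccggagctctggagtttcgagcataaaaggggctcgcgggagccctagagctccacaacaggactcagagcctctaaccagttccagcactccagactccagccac
Cxcl2: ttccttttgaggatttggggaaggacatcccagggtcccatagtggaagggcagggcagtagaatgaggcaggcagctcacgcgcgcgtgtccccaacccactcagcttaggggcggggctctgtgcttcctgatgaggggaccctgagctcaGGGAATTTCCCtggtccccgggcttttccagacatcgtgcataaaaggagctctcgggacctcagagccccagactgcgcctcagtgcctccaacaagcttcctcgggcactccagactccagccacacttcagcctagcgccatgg
Cxcl3: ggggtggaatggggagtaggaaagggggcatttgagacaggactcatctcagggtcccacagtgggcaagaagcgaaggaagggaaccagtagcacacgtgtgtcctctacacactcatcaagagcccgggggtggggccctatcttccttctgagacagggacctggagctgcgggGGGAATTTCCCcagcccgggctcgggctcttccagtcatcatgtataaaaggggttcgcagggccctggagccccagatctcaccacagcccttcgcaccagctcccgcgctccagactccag
All of them held the letters GGGAATTTCCC, beginning at position -71 in *Cxcl1*, -97 in *Cxcl2* and -73 in *Cxcl3*. Promoter windows matched 42 of the 56 genes, 26 of them tested. The NF-κB consensus stood in 20.4% of the family's 49 windows, the GAAA-NN-GAAA core in 6.12% and TCAAAG in 22.4%, the last against 16.0% of all windows. The tested genes with an NF-κB match were *Ackr2*, *Ccl20*, *Ccl27a*, *Ccl9*, *Cxcl1*, *Cxcl10*, *Cxcl2* and *Cxcl3*. They include called and uncalled genes alike. *Cxcl2* and *Cxcl3* share 5.84% and 4.29% of their 50-base transcript stretches with other genes, so reads from such stretches could be exchanged between the 2.

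In the CXCL12 axis, *Cxcl12* and *Cxcr4* had the most counts of the family with DMSO. Per length, *Cxcl12* ranked 5 among the ligands with DMSO and 6 with CHIR99021. *Cxcl12*, which retains stem cells and guides vessels, was at 122, 121, 115 and 109 CPM with DMSO and at 19.1, 28.9, 33.4 and 34.1 CPM with CHIR99021. The controls lay within a narrow range and the treated samples well below it (log2 fold change -2.02 ± 0.16, adjusted p = 1.11e-05). *Cxcr4*, its signalling receptor, was at 133, 113, 75.2 and 85.0 CPM with DMSO and at 83.1, 75.4, 80.7 and 67.6 CPM with CHIR99021. Its groups overlapped, DMSO replicate 3 being below 3 treated samples, and its log2 fold change of -0.40 ± 0.18 was not called (adjusted p = 0.106). It was called lower in 3 of 19 alternatives, namely without that control (-0.53 ± 0.15, adjusted p = 0.0212) and with limma on log2(FPKM + 1) (-0.54, 0.0330) or log2(FPKM + 0.1) (-0.55, 0.0466). *Ackr3*, the atypical receptor that clears CXCL12, fell from 48.1, 54.4, 35.9 and 37.5 CPM to 24.4, 26.2, 25.1 and 28.3 CPM, without overlap (log2 fold change -0.76 ± 0.13, adjusted p = 5.90e-04). Together *Cxcl12* and *Cxcr4* took 38.5 to 43.3% of the family's counts with DMSO and 32.3 to 39.0% with CHIR99021.

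The balance between ligand and receptor was compared within each sample, where scaling between samples enters only through the 0.5 CPM added to both genes. The log2 ratio of *Cxcl12* to *Cxcr4* was -0.13, 0.11, 0.61 and 0.35 with DMSO and -2.09, -1.37, -1.26 and -0.98 with CHIR99021. It was lower in all treated samples, by -1.66 on average (two-sided exact permutation test, p = 0.0286, adjusted over 3 ratios p = 0.0429). That p is the smallest that 4 against 4 samples allow. With the replicate block (sign flips within pairs) p was 0.125, which is the smallest that 4 pairs allow. The log2 ratio of *Ackr3* to *Cxcr4* was -1.46, -1.04, -1.06 and -1.17 with DMSO and -1.75, -1.51, -1.66 and -1.24 with CHIR99021. The difference of -0.36 was not called (exact permutation p = 0.0571).

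The window of *Cxcl12* (chr6:117168285-117168584, plus strand) is shown because this gene fell and its window holds TCAAAG. That of *Cxcl14* (chr13:56296502-56296801, minus strand), the 1 ligand called higher, is shown beside it.
Cxcl12: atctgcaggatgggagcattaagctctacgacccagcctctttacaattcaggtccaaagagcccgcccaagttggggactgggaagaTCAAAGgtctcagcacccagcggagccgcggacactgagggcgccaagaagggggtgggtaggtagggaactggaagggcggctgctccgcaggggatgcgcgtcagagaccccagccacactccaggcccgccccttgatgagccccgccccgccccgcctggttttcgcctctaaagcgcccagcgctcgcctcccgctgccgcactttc
Cxcl14: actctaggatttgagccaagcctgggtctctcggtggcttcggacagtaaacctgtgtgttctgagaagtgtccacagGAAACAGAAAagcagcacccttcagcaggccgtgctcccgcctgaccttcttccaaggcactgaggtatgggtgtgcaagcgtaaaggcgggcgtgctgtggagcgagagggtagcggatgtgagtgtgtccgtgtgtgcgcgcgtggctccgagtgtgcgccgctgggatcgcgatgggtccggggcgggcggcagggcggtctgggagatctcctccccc
The TCAAAG of *Cxcl12* began at position -162. The other genes with this match were *Ccl8*, *Ccl12*, *Ccl25* and *Cxcr6* among those tested, and *Ccl17*, *Ccr4*, *Ccr6*, *Cxcl15* and *Xcr1* among the others. The *Cxcl14* window held the GAAA-NN-GAAA core at position -172 and no TCAAAG.

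*Cxcl14*, a CXC ligand made by epithelium and stroma whose signalling receptor is not settled, rose to more than double its control level. It was at 16.9, 17.2, 18.2 and 17.7 CPM with DMSO and at 31.3, 38.6, 52.5 and 44.4 CPM with CHIR99021. The controls were tightly grouped and all treated samples lay above them (log2 fold change 1.25 ± 0.14, adjusted p = 2.66e-05). Per length it became the most abundant chemokine ligand, at an FPKM of 21.7 ± 4.75 (SD, n = 4) with CHIR99021 against 10.04 ± 0.389 with DMSO, where it ranked 8. With DMSO the ligand with the highest FPKM was *Ccl7*, at 23.0 ± 3.67, followed by *Ccl8* (18.7 ± 12.2), *Ccl12* (17.5 ± 7.64), *Ccl2* (15.6 ± 2.46) and *Cxcl12* (14.9 ± 0.723). With CHIR99021 *Cxcl14* was followed by *Ccl21a* (5.84 ± 7.95), *Ccl8* (5.08 ± 4.33) and *Ccl7* (4.88 ± 3.32), which do not differ beyond their spread. *Cxcr4* had the highest FPKM of all receptors in both groups, 58.6 ± 14.9 with DMSO and 40.4 ± 3.46 with CHIR99021, and *Ackr3* came next, at 13.7 ± 2.66 and 7.40 ± 0.517.

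**Figure D3:**
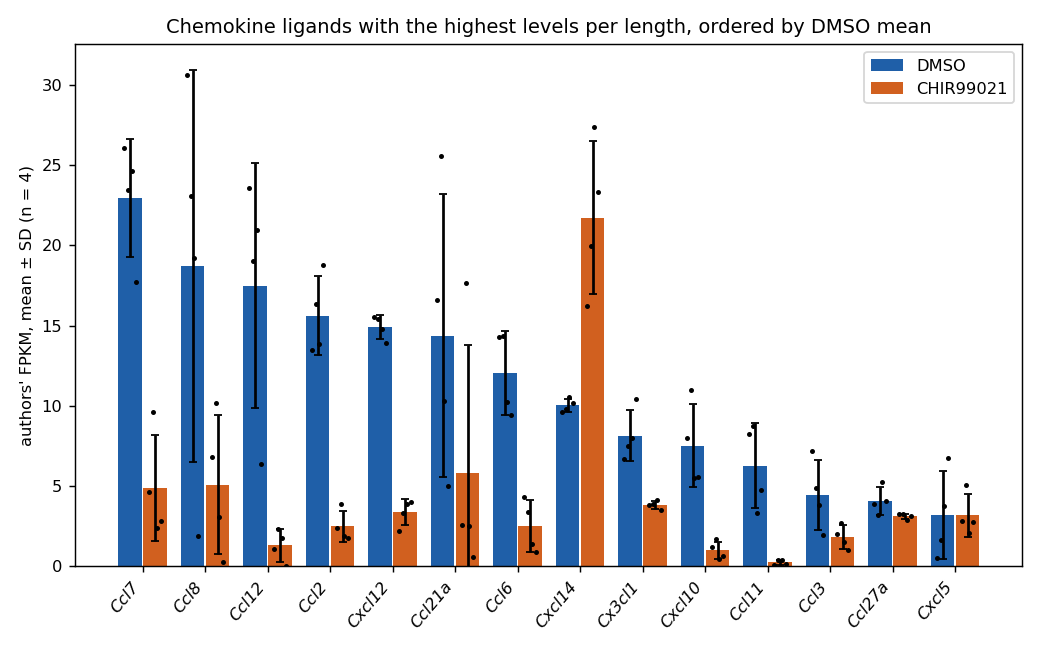
The authors' FPKM of chemokine ligands, as mean and SD of 4 samples per group (bars) with each sample as a dot, ordered by the DMSO mean. The tallest bar is *Ccl7* with DMSO (23.0) and *Cxcl14* with CHIR99021 (21.7), and *Ccl8* with DMSO and *Ccl21a* with CHIR99021 each have 1 sample far from the others.

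*Cx3cl1*, or fractalkine, is a membrane-bound ligand of endothelium and epithelium, and *Cx3cr1* is its only receptor, carried by resident macrophages. *Cx3cl1* was at 25.2, 28.3, 29.9 and 39.1 CPM with DMSO and at 15.9, 16.1, 17.0 and 14.4 CPM with CHIR99021. All treated samples lay below the controls, at about 1 log2 unit (log2 fold change -0.95 ± 0.12, adjusted p = 5.25e-05). *Cx3cr1* was at 6.06, 9.76, 6.44 and 1.37 CPM with DMSO and at 0.0624, 0.134, 0.0718 and 0 CPM with CHIR99021, from 414 and 4 counts. Its log2 fold change was -6.32 ± 0.83 (adjusted p = 2.27e-04), the second largest fall among the tested family genes. The log2 ratio of ligand to receptor was 1.97, 1.49, 2.13 and 4.40 with DMSO and 4.86, 4.71, 4.94 and 4.90 with CHIR99021, higher by 2.35 on average (two-sided exact permutation test, p = 0.0286, adjusted p = 0.0429). *Cx3cr1* had 0 to 2 counts in each treated sample, so the treated ratios, their small spread and the size of the difference are largely set by the 0.5 CPM added to both genes. Leaving out any 1 CHIR99021 sample gave differences of 2.33 to 2.40 with an exact permutation p = 0.0571. With the replicate block p was 0.125, the smallest that 4 pairs allow.

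Among the other signalling receptors, *Ccr1*, the shared receptor of *Ccl3*, *Ccl6* and *Ccl9*, fell. It was at 8.06, 10.3, 6.74 and 4.19 CPM with DMSO and at 3.31, 2.74, 2.08 and 1.31 CPM with CHIR99021 (log2 fold change -1.63 ± 0.31, adjusted p = 0.00141). Replicate 4 was the lowest sample of each group and the groups did not overlap. *Cxcr6*, carried by T cells and natural killer T cells, was near the limit of testing at 0.0654 to 0.971 CPM with DMSO and 0.359 to 0.936 CPM with CHIR99021 (log2 fold change -0.05 ± 0.51, adjusted p = 0.947). *Cxcl16*, its ligand, was at 7.92 to 12.8 CPM and at 6.44 to 12.4 CPM (-0.20 ± 0.22, adjusted p = 0.506). Of the exon bases of *Cxcl16*, 18.3% overlap a gene on the opposite strand, and the sources used here give no strand setting for the counting.

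The atypical receptors went both ways. *Ackr4*, which clears *Ccl19*, *Ccl21a* and *Ccl25*, was at 1.73, 1.54, 1.99 and 1.37 CPM with DMSO and at 3.87, 6.83, 8.25 and 6.11 CPM with CHIR99021. All treated samples were above the controls (log2 fold change 1.91 ± 0.24, adjusted p = 2.83e-05), the largest rise among the tested family genes. Of its exon bases, 8.90% overlap *Acad11* on the opposite strand. *Ackr2*, which clears inflammatory CC ligands such as *Ccl2*, was at 2.65, 3.37, 2.99 and 2.29 CPM with DMSO and at 1.37, 2.08, 1.08 and 1.58 CPM with CHIR99021 (log2 fold change -0.89 ± 0.24, adjusted p = 0.00769). *Ackr1*, found on venules and red cells, had 10 counts with DMSO and 3 with CHIR99021 and was not tested.

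The homeostatic CC ligands of epithelium and lymphatics made up most of the remaining uncalled genes. *Ccl25*, the thymic and intestinal ligand of CCR9, was at 18.7 to 21.9 CPM with DMSO and 17.7 to 22.6 CPM with CHIR99021 (log2 fold change -0.0007 ± 0.10, adjusted p = 0.996), the smallest difference of all. *Ccl27a* and *Ccl28*, both ligands of CCR10, had log2 fold changes of -0.24 ± 0.15 and -0.34 ± 0.20 (adjusted p = 0.191 and 0.186). *Ccl20*, the ligand of CCR6, was low in both groups (-0.60 ± 0.42, adjusted p = 0.267). *Ccl21a*, the lymphatic ligand of CCR7, was at 13.8, 21.4, 8.49 and 4.19 CPM with DMSO and at 2.37, 16.3, 2.30 and 0.526 CPM with CHIR99021. The treated sample was the lower one in all 4 replicate numbers, while replicate 2 was the highest of each group. *Ccl21a* was not called (log2 fold change -1.17 ± 0.99, adjusted p = 0.383) and was called with the replicate block (-1.58 ± 0.46, adjusted p = 0.0430) and without CHIR99021 replicate 2 (-2.79 ± 0.75, adjusted p = 0.0264). Of its 50-base stretches 71.6% also lie in near-identical copies, and of those of *Ccl27a* 45.0%, so counts of both may be split among copies. Lymphatic markers gave 0 lower and 1 higher of 4, and their sums overlapped between the groups.

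The 24 genes that were not tested had between 1 and 106 counts over all samples, and 16 of them had 18 or fewer. Among those with at least 20, *Ccr10* had 44 counts with DMSO and 17 with CHIR99021, without overlap between groups, and *Ccr4* had 20 and 6. *Ccr9* had 35 and 29 counts and *Ccr6* had 13 and 11. *Ccr7*, the receptor that leads dendritic cells to lymph nodes, went the other way, with 3, 7, 0 and 0 counts with DMSO and 7, 12, 6 and 7 with CHIR99021, which overlap in raw counts. Of 36 ligand and receptor pairs in a textbook list, 8 had both partners tested, and in 6 of these both were lower. Among these were *Cxcl12* with *Ackr3*, *Cx3cl1* with *Cx3cr1*, and *Ccl3*, *Ccl6* and *Ccl9* with *Ccr1*. The pairs share genes and consist of lower genes already counted above, so they are not a separate result. Of the 23 tested ligands in that list, 17 had no tested receptor, and 7 of these were lower. Of all tested genes, 25% were lower.

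**Figure D4:**
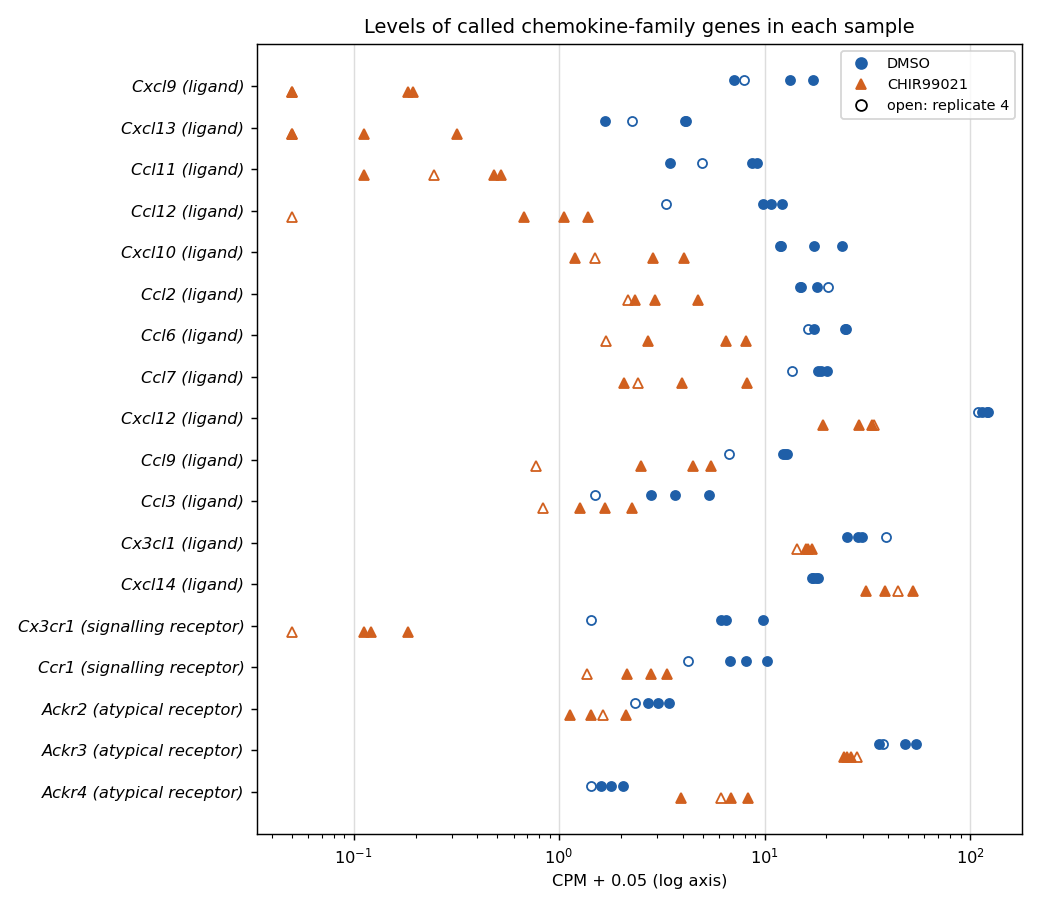
CPM plus 0.05 on a log axis for 18 of the 19 called genes in each of the 8 samples, with blue circles for DMSO, orange triangles for CHIR99021 and open symbols for replicate 4. The groups do not overlap, *Ccl3* being the exception, and the open circles lie at the low end of the controls for *Cx3cr1*, *Ccl12*, *Ccl9* and *Ccr1*.

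DMSO replicate 4 separated the family within the control group. Its summed macrophage markers were 0.289 times the mean of the other 3 controls, and 15 of the 16 markers were below all other controls. It was the lowest control for 15 of the 32 tested family genes and for 25.1% of all tested genes. Of the 17 family genes lower with CHIR99021, 10 were lowest in this control, beside 29.7% of all genes called lower, and 3 of the 17 were at or under 0.5 times the mean of the other controls. Relative to the mean of the other controls *Cx3cr1* stood at 0.185, *Ccl12* at 0.301 and *Ccl3* at 0.371, and the uncalled *Ccl8* at 0.0769. *Cxcl12*, also one of the 10, stood at 0.913, *Ccl2* at 1.29 and *Cx3cl1* at 1.41. Without replicate 4 in either group, 20 of 34 tested family genes were lower, beside 22.3% of all 16962 genes tested in this setting, and 3 were higher. The 20 were the 17 lower in all samples together with *Ccl4*, *Ccl8* and *Ccr10*.

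**Figure D5:**
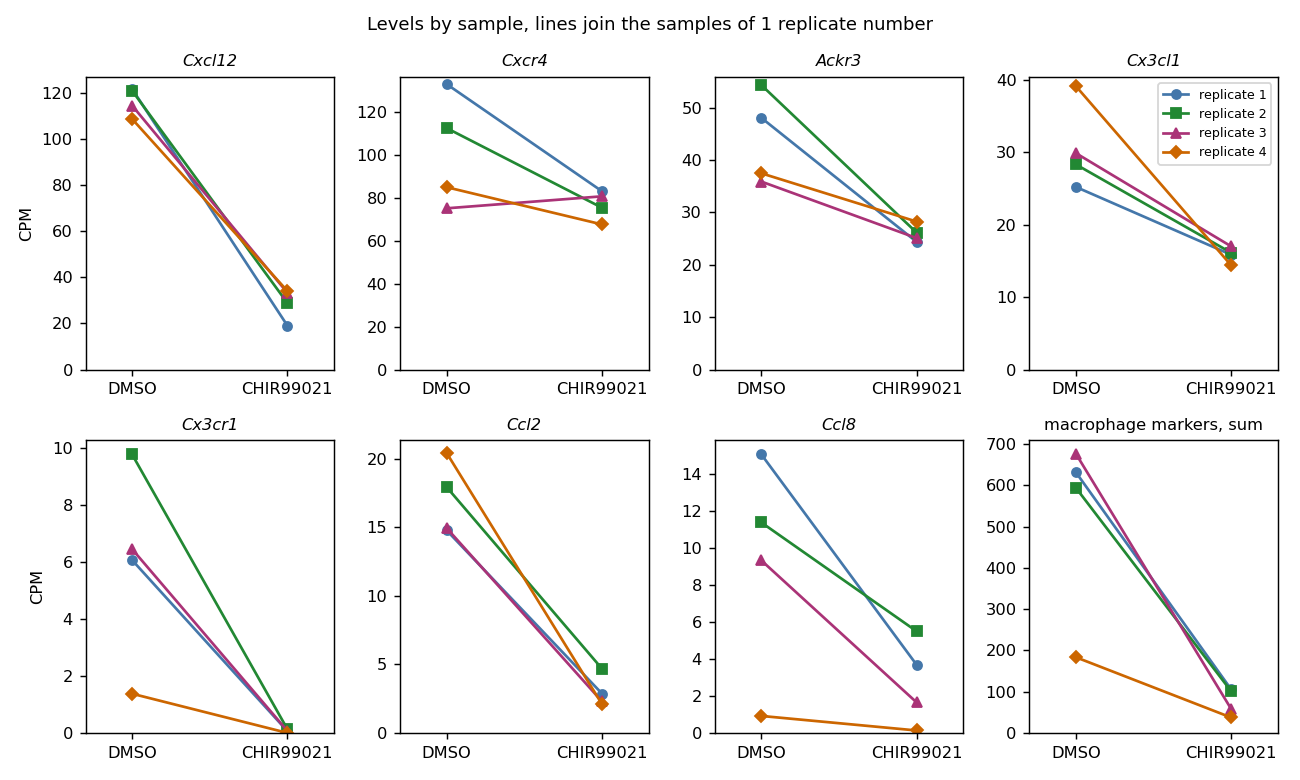
CPM of 7 chemokine-family genes and the summed CPM of 16 macrophage markers in DMSO and CHIR99021 samples, with lines joining equal replicate numbers and axes starting at 0. Replicate 4 with DMSO is low for *Cx3cr1*, *Ccl8* and the macrophage sum (183) but is the highest control for *Ccl2* (20.4) and *Cx3cl1* (39.1).

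Genes that act after chemokine receptors changed in both directions. Of 31 tested genes of receptor signalling, 13 were lower and 11 higher, with a median log2 fold change of -0.06, where 25% of all tested genes were lower and 23.7% higher. The higher ones included the receptor kinase *Grk3* (log2 fold change 1.10 ± 0.09, adjusted p = 1.18e-06), *Jak2* (0.93 ± 0.08, 1.20e-06), the arrestin *Arrb1* (0.54 ± 0.05, 2.05e-06) and the inhibitory G protein subunit *Gnai1* (0.81 ± 0.08, 2.54e-06). Of 17 genes that process, bind or present chemokines, 4 were lower and 5 higher, or 23.5% and 29.4%, with a median of 0.04. *Mmp9*, a protease named here after its values were seen, had the largest rise of these 17 genes, from 15.3 ± 6.60 CPM to 411 ± 271 CPM (SD, n = 4; log2 fold change 4.74 ± 0.73, edgeR adjusted p = 0.00206). *Mmp2* and *Mmp14*, proteases that clip chemokines among many substrates, were higher (log2 fold changes 1.38 ± 0.07 and 0.78 ± 0.08, adjusted p = 5.98e-09 and 8.86e-06). *Cmklr1*, the chemerin receptor, and *Sdc4*, a heparan sulphate proteoglycan, were lower (-2.63 ± 0.21 and -0.74 ± 0.08, adjusted p = 5.57e-07 and 2.21e-05).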

How the data were processed

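Whole embryonic kidneys were profiled by mRNA sequencing. The authors filtered reads, aligned them to GRCm38 with HISAT2 2.0.5, counted them per gene with featureCounts, and deposited raw counts and FPKM values. The sources used here give no strand setting. The deposited table also holds the authors' own comparison, which was not used. Depth was 14599082 to 17751992 counts per sample, and p-values measure the spread between these samples only.

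The members, lists and pairs were chosen with earlier results of these data known. Genes were kept with filterByExpr (minimum count 10, minimum total 15), which left 16723 of 30890 genes, scaled by TMM and tested with edgeR 4.0.16 in R 4.3.3 (glmQLFit with robust = TRUE, glmQLFTest). Genes were called at a Benjamini-Hochberg adjusted p under 0.05, over all tested genes. The standard error is the log2 fold change over the square root of F. Log2 ratios used CPM plus 0.5 and a two-sided exact permutation test. The procedure was tested on simulated data. Tested members were named, as were untested ones with at least 20 counts, and some results the rule gives stay in the counts but are not reported here.

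The study divided the kidneys of each embryo between the groups, but no label states that equal replicate numbers are such pairs. After removal of group means, samples of equal number correlated at 0.111 to 0.346 across genes and others at -0.180 to 0.0766, and from this the numbers were taken as pairs. GENCODE M21 lists 61 names that fit the rule, of which 5 have no row in the table and are not analysed here. Sequences are RefSeq promoter windows of GRCm38.p6. Alternatives were the replicate block, RLE and upper-quartile scaling, DESeq2 1.42.0, limma 3.58.1 (voom, log2(count + 1), log2(FPKM + 1) and log2(FPKM + 0.1)), no filter, a filter of 1 CPM in 4 samples and leaving out each sample. Leaving out replicate 4 in both groups was chosen after seeing the data. Plots were drawn with matplotlib.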

Additional observations from a re-analysis of the deposited data

Results flagged for a closer look

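In 64 groups of 4 samples (32 tested genes in 2 groups), 2 samples lay farther from the other 3 than Dixon's critical value at the 95% level allows, where chance alone gives about 1 in 20 groups. *Ccl21a* in CHIR99021 replicate 2 was at 16.3 CPM, against 0.526 to 2.37 CPM in the other treated samples. Without this sample *Ccl21a* was called lower (log2 fold change -2.79 ± 0.75, edgeR adjusted p = 0.0264). *Ccl9* in DMSO replicate 4 was at 6.67 CPM, against 12.2 to 12.8 CPM in the other controls. The summed macrophage markers were also lowest among the controls in that sample, and their part in the value was not tested.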

How the results depend on the processing

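Over 18 alternatives and the one added later, 15 to 20 genes of the family were lower and 2 to 4 higher, and those past both thresholds numbered 12 to 20. The number of family genes tested ran from 31 (filter of 1 CPM in 4 samples) to 56 (no filter). Of all genes tested, 13.9% (no filter) to 28.4% (upper-quartile scaling) were lower, so the counts are not directly comparable between settings. With no expression filter 4 were higher, *Cxcl15* and *Ccr7* joining *Cxcl14* and *Ackr4*, and *Ccl5* and *Cxcr5* were added to the lower ones. *Cxcl14*, *Ackr4* and 15 to 17 of the 17 lower genes kept their call in each setting. The replicate block added *Ccl8*, *Ccl21a* and *Cxcl2* and changed no other call in edgeR. With the block in the exact tests the ratios of *Cxcl12* to *Cxcr4* (-1.66) and of *Cx3cl1* to *Cx3cr1* (2.35) had p = 0.125, the smallest possible with 4 pairs. Leaving out 1 sample, the *Cx3cl1* to *Cx3cr1* ratio differed by 2.02 to 2.99, with an exact permutation p = 0.0571 without any one CHIR99021 sample, sizes largely set by the added 0.5 CPM. Fold changes near 0 changed sign. *Ccl25* was 0.000866 with RLE, 0.00076 with DESeq2, 0.017 with no filter, 0.054 with log2(count + 1), 0.11 with log2(FPKM + 1), 0.14 with log2(FPKM + 0.1), and -0.052 to 0.063 without single samples. *Ccl28* was 0.0051 with log2(FPKM + 1) and 0.012 with log2(FPKM + 0.1). *Cxcr6* was 0.0060 with the block, 0.29 with voom, 0.66 with log2(count + 1), 0.10 with log2(FPKM + 1), 0.46 with log2(FPKM + 0.1) and -0.40 to 0.21 without single samples. *Cxcl5* was -0.21 to 0.82 without single samples. None of these was called. Genes with few reads in treated samples, such as *Cxcl9* and *Cx3cr1* with 4 counts each, have fold changes whose size is set by those counts.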
